A study of Mus musculus with 6 samples.

Results

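The genes described here encode the machinery that turns prohormones into peptide hormones, packs them into dense-core granules and releases them by exocytosis. There are 39 of them, taken from the 48397 gene names counted. The rule picks them for their known roles and uses no measured value, but the group was put together with earlier results of these data known. All 39 passed the filter on low counts. They were measured by sequencing polyadenylated RNA of islets isolated from wild-type mice (C57B6), a mixed tissue of endocrine and other cells. After an overnight recovery in medium with serum, 3 control libraries came from islets given the solvent DMSO, and 3 prolactin libraries from islets given 500 ng/mL of recombinant mouse prolactin, each for 24 h. Both conditions thus share the isolation and the culture. The labels used here give no age, and they do not say whether replicates of a condition came from separate animals, pools of animals or cultures, so each p-value measures no more than the spread of these libraries, and that spread may be technical. Prolactin is the pituitary hormone whose receptor acts in beta cells during pregnancy, and the series concerns signalling through that receptor.

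A peptide hormone is made as a larger precursor in the endoplasmic reticulum. In the forming granule, prohormone convertases cut the precursor at pairs of basic residues, a carboxypeptidase trims the ends, and further enzymes modify the termini. Granins condense with the hormones in the granule core. Release needs a vesicle SNARE and plasma membrane SNAREs that zip together, Rab GTPases and their effectors that bring the granule to the membrane, priming factors, and synaptotagmins that sense calcium.

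The islet label was checked against marker genes. Summed beta-cell markers ranged from 117066 to 143551 CPM (read counts scaled to the TMM-adjusted library total) in control and from 119093 to 124568 CPM in prolactin, and 0 of the 10 were at 0 in any library. Acinar markers, from exocrine tissue around the islets, ranged from 625.4 to 3432 CPM in control and from 1034 to 2236 CPM in prolactin. Assigned reads per library ranged from 230833584 to 530296257, and the 39 genes took 3.43% to 3.64% of them. Prolactin replicates 2 and 3 were closer than any other pair of one condition. The median squared difference between their counts was 3.76 times that of sampling alone, against 12.1 to 43.9 times for those pairs. The results below were therefore also computed with these counts summed into a single library.

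The upstream regions of Chgb, Scg2 and Pcsk1 each held an intact cAMP response element (CRE), TGACGTCA, the site through which CREB is known to act on genes of granins and convertases. They are shown because these neuroendocrine genes, which code for a pair of granins and a convertase, share an element that the choice of genes did not use, and because Chgb and Scg2 lay in opposite directions in the prolactin libraries. Their promoter stretches below are the 120 bases before the RefSeq start site, 5′ to 3′ on the gene's strand, build GRCm38.p6 (the assembly called mm10), with the CRE in capitals. The GENCODE models used for counting begin upstream of these RefSeq start sites. The CREs of Chgb and Scg2 thus lie within the spans of their models, while that of Pcsk1 lies upstream of its model.
Chgb, chr2:132781522-132781641, plus strand: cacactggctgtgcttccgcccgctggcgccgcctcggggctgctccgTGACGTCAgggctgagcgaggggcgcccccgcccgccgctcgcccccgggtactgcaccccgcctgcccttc
Scg2, chr1:79440027-79440146, minus strand: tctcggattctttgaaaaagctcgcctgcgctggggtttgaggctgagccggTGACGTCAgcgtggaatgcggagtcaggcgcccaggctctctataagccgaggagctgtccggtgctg
Pcsk1, chr13:75089737-75089856, plus strand: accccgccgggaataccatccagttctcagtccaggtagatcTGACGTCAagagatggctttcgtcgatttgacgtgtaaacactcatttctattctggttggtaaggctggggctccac
The element began at position -72 in Chgb, -68 in Scg2 and -78 in Pcsk1, counted from the base before the start site as -1. RefSeq windows of 300 bases, 250 of them upstream, were given for 28 of the 39 genes, in 32 windows, since a gene can have several start sites. The CRE stood in 3 of the 32 (9.38%), against 1.79% of all 32851 windows. The STAT5 consensus TTCNNNGAA was also searched, since STAT5 acts downstream of the prolactin receptor. It stood in 5 of the 32 windows (15.6%), those of Scg5, Scg2, Vamp8, Rph3al and Sytl4, against 8.30% of all windows. In Scg2 the STAT5 match began at -113 and did not overlap the CRE. Both motifs read the same on either strand, a match is not evidence of binding, and the CRE was added to the search with the expression values known.

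A single gene of the 39, Qpct, passed the test of prolactin against control. Transcripts of the convertases, the main granins, the SNARE proteins and the Rab proteins did not pass. The granins Chgb, Scg2 and Scg3 were among those under 0.05 without adjustment, and DESeq2 called them, so their failure to pass does not show a lack of difference. In edgeR's quasi-likelihood test at an adjusted p under 0.05, 1 of 39 fell and 0 rose, while 0.757% of all 23924 genes tested passed in either direction, 0.104% lower and 0.652% higher. Without adjustment, 5 of the 39 were lower and 2 higher at p under 0.05. That is 17.9% of the 39, beside 14.5% of all genes (6.68% lower and 7.78% higher). DESeq2, as in the authors' deposited table, called 3 lower and 2 higher, beside 1.60% lower and 4.10% higher of the 18913 genes with an adjusted p. With limma-voom 1 was lower and 0 higher. The 3 prolactin libraries lay wholly on one side of the 3 controls for 8 of the 39 (20.5%), beside 21.6% of all genes tested. Of these 8, 6 were lower (10.4% of all genes) and 2 higher (11.3% of all genes).

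The 95% interval of the change stayed within 1.5-fold in either direction for 37 of the 39 genes, all but Qpct and Cplx1. The median log2 change (prolactin over control) was -0.05, between quartiles of -0.12 and 0.00, beside a median of 0.00 over all genes tested and of -0.02 over the 11590 genes that averaged 5 CPM or more. Changes were negative for 31 of the 39 (79.5%), beside 49.9% of all genes tested and 55.1% of those with at least 5 CPM. That number lay between 25 and 31 over the 18 alternative fits and was lowest without control replicate 3. In bulk RNA, fewer cells of a type and less RNA per cell cannot be told apart, and this holds for every change given here.

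**Figure D1:**
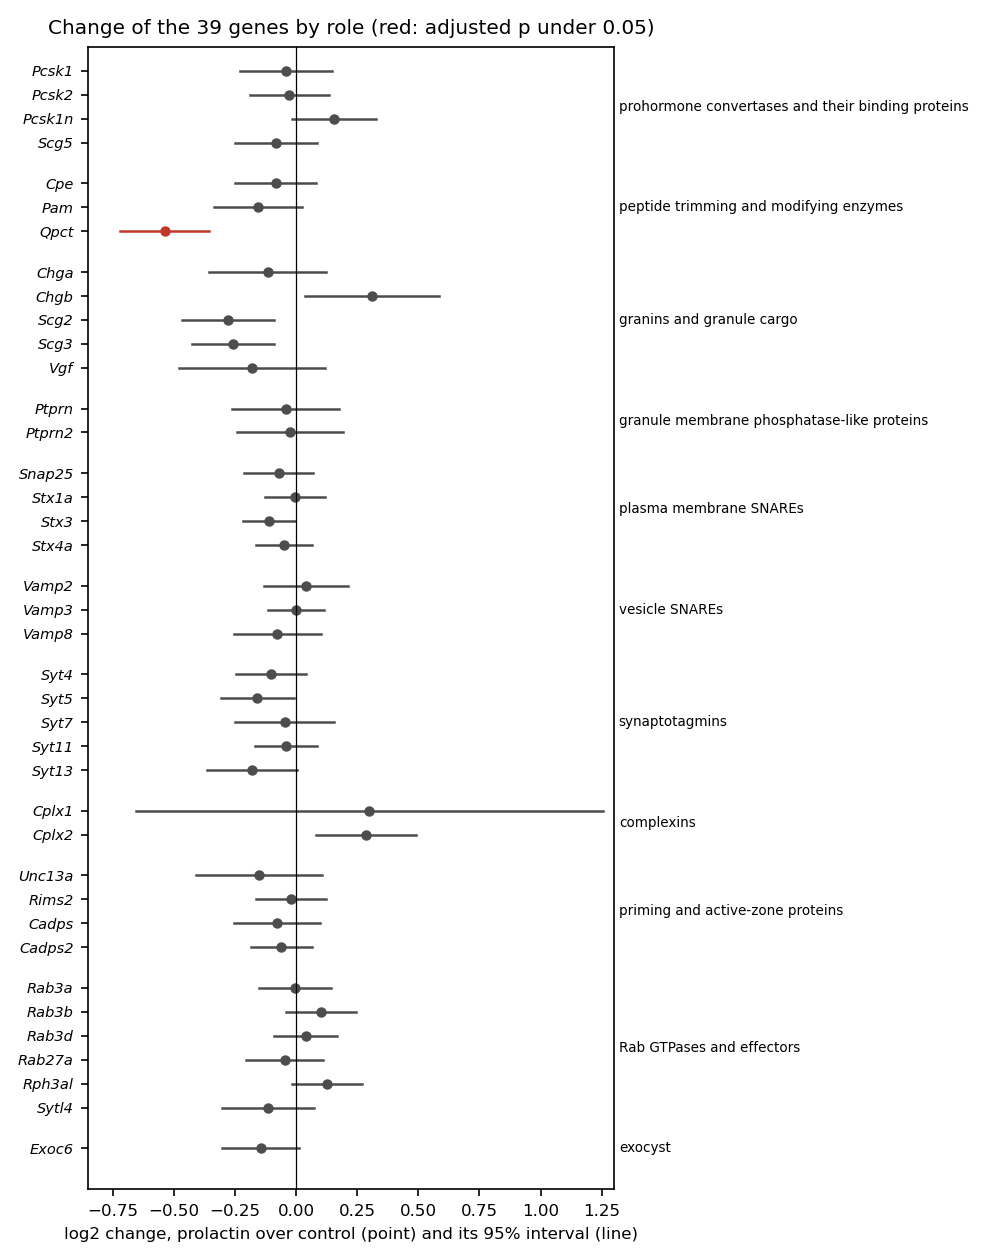
Log2 change of each gene, prolactin over control, on the horizontal axis (point: edgeR estimate; line: its 95% interval), with genes grouped by role on the vertical axis. Qpct, in red, is the gene with an adjusted p under 0.05, and Cplx1 has the widest interval.

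Qpct encodes glutaminyl cyclase, which converts an amino-terminal glutamine of a peptide to pyroglutamate. Its gene lies on chromosome 17, 79051906 to 79090243 (mm10). It stood at 9.05, 9.74 and 8.48 CPM in control replicates 1, 2 and 3 and at 5.92, 6.47 and 6.40 CPM in prolactin replicates 1, 2 and 3. All prolactin libraries were below all controls, and the gap between the groups was wider than the range within either. The mean fell from 9.09 ± 0.63 to 6.26 ± 0.30 CPM (SD, n = 3 each), which is 0.689-fold with a 95% interval from 0.607-fold to 0.782-fold (log2 change -0.54, SE 0.081, edgeR's adjusted p = 0.0256). In the authors' deposited table its log2 fold change was -0.54 (adjusted p = 7.0e-07). The edgeR call held without control replicate 3 (adjusted p = 0.0201) and was lost when any of the other 5 libraries was left out (adjusted p from 0.0585 to 0.151), and when prolactin replicates 2 and 3 were summed (adjusted p = 0.152). The log2 change itself stayed between -0.58 and -0.49 over those fits. At 4.72 ± 0.33 RPKM (reads per kilobase of gene model, scaled as CPM) in control, Qpct was among the lowest of the 39 per length.

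The other enzymes that finish peptides were far more abundant. Carboxypeptidase E (Cpe), which removes the basic residues left by the convertases, stood at 3673, 4001 and 3817 CPM in the control libraries and at 3551, 3645 and 3657 CPM in the prolactin libraries. The groups did not overlap, but the gap between them was small beside the spread of the controls (log2 change -0.08, edgeR adjusted p = 0.664). Pam, which makes the amidated carboxyl terminus of peptides such as amylin, averaged 1534 ± 105 CPM without prolactin and 1377 ± 85 CPM with it, with overlapping libraries (log2 change -0.16, adjusted p = 0.412).

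Among the convertases and their binding proteins, 0 of 4 passed edgeR's test, and 0 did so by DESeq2, by limma-voom or without adjustment. Pcsk1 encodes PC1/3 and Pcsk2 encodes PC2, the enzymes that process proinsulin and proglucagon. Pcsk1 had a mean of 691.4 ± 51.1 CPM in the controls and of 671.7 ± 57.3 CPM with prolactin (0.971-fold, 95% interval 0.852 to 1.11). Pcsk2 was at 3217 ± 114 and 3158 ± 86 CPM, and varied little over all 6 libraries, with the highest 1.07 times the lowest. Pcsk1n encodes proSAAS, an inhibitor of PC1/3. It stood at 1163, 1335 and 1243 CPM in control and at 1314, 1418 and 1433 CPM in prolactin, where the lowest prolactin library lay just under the highest control (log2 change 0.15, SE 0.076, adjusted p = 0.397). Scg5 encodes 7B2, the chaperone and inhibitor of PC2, and had a log2 change of -0.08 (adjusted p = 0.677). The ratio of Pcsk1 to Pcsk1n reads was 0.558 ± 0.077 in control and 0.486 ± 0.065 in prolactin (exact permutation test on the log2 ratio, two-sided p = 0.3, where 3 against 3 allows no less than 0.1).

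The granins did not run in 1 direction. Of the 5, 0 passed edgeR's test, 1 was higher and 2 lower without adjustment, DESeq2 called those 3, and limma-voom 0. Chgb, chromogranin B, a core granin (chromosome 2, 132781278 to 132795079), stood at 4547, 3819 and 4004 CPM in control and at 6026, 4737 and 4585 CPM in prolactin. All prolactin libraries were higher than all controls, though prolactin replicate 3 was above control replicate 1 by little, and replicate 1 was the highest library in each condition. The log2 change was 0.31 (95% interval 0.04 to 0.58, SE 0.121, edgeR's adjusted p = 0.288), and without prolactin replicate 1 the log2 change was 0.17. Secretogranin II (Scg2), a granin cut into small peptides (chromosome 1, 79434669 to 79440120), stood at 4981, 4922 and 4305 CPM in control and at 3867, 3904 and 3948 CPM in prolactin. The prolactin libraries lay close together below all controls, and control replicate 3 was nearest to them. Its log2 change was -0.28 (SE 0.083, edgeR's adjusted p = 0.178), and without control replicate 3 it was -0.34 and passed (adjusted p = 0.0400).

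Secretogranin III (Scg3), which binds chromogranin A and the granule membrane (chromosome 9, 75643264 to 75683996), was at 1677, 1566 and 1681 CPM in control and at 1466, 1294 and 1355 CPM in prolactin. The groups did not overlap (log2 change -0.26, SE 0.074, edgeR adjusted p = 0.163). Chga, chromogranin A, the most abundant of the 39, was at 6340, 7337 and 8097 CPM in control and at 6246, 6916 and 6920 CPM in prolactin, with overlapping groups (adjusted p = 0.671). Vgf, the precursor of several granule peptides, overlapped as well (175.2 ± 34.4 and 154.7 ± 16.6 CPM, adjusted p = 0.586). In the authors' deposited table Chgb (adjusted p = 0.0487), Scg2 (0.00885) and Scg3 (0.0130) were under 0.05, as were 5.71% of the 18913 genes with an adjusted p. With prolactin replicates 2 and 3 summed, edgeR adjusted p was 0.477 for Chgb, 0.496 for Scg2 and 0.513 for Scg3.

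With Chgb higher and Scg2 and Scg3 lower, the ratios of these genes were compared as well. The ratio of Chgb to Scg2 reads was 0.913, 0.776 and 0.930 in control and between 1.16 and 1.56 in prolactin. For Chgb to Scg3 it was 2.71, 2.44 and 2.38 in control and 4.11, 3.66 and 3.38 in prolactin. Neither ratio overlapped between conditions, with differences of 0.58 and 0.56 on the log2 scale. This follows from the values already given, since Chgb lay wholly above the controls and Scg2 and Scg3 wholly below them. The ratios are therefore a description with no test, and the pairs were chosen after the values were seen. The ratio of Chgb to Chga did overlap, since control replicate 1 at 0.717 was above prolactin replicates 2 and 3 at 0.685 and 0.663.

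**Figure D2:**
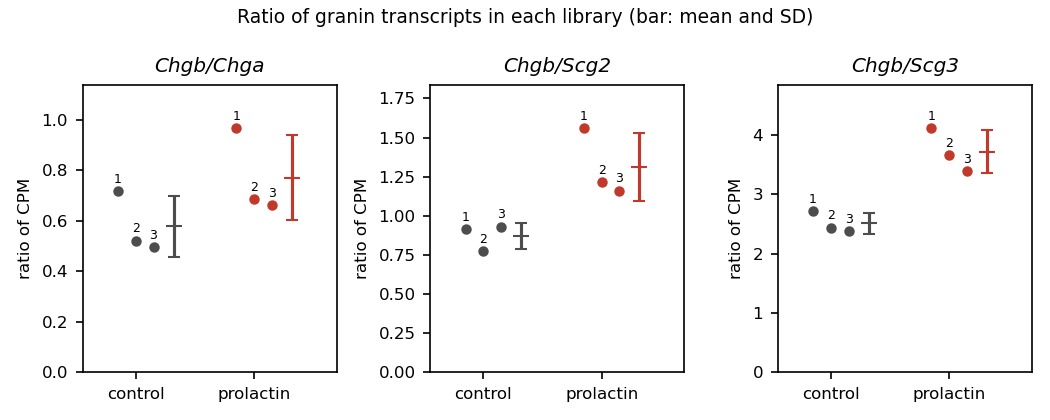
Ratio of CPM of Chgb to Chga, Scg2 and Scg3 (vertical axis, no unit) in each library (points, numbered by replicate), with mean and SD of 3 libraries per condition as bars. The prolactin libraries lie above all controls for Scg2 and Scg3 and overlap them for Chga.

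Summed delta-cell and PP-cell markers (5 genes, 0 of them at 0 in any library) did not overlap between conditions, as Scg2 and Scg3 did not: they ranged from 8015 to 8479 CPM in control and from 5654 to 7016 CPM in prolactin. The hormone genes Sst (log2 change -0.40, edgeR adjusted p = 0.0488) and Ppy (-0.74, adjusted p = 0.0708) carried that sum, while Hhex (-0.02), Rbp4 (0.09) and Pyy (-0.09) overlapped between conditions. Summed stromal markers (10 genes, also with none at 0) were higher, with a range of 482.0 to 733.6 CPM in control and of 924.3 to 1132 CPM in prolactin. All 10 had positive changes, and 2 of them, Col1a1 and Col1a2, rose (adjusted p = 0.0382 and 0.0482). Summed endothelial markers (9 genes, none at 0) ranged from 300.8 to 350.1 CPM in control and from 351.5 to 362.7 CPM in prolactin, with all 9 changes positive and 1, Vwf, past the threshold (log2 change 0.59, adjusted p = 0.0161). Alpha-cell markers overlapped between conditions, 23825 to 37916 CPM in control and 35516 to 36825 CPM in prolactin. The part of these cell types in the granin or Qpct results was not tested.

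The granule membrane proteins Ptprn (IA-2) and Ptprn2 (phogrin), receptor-type phosphatase relatives known as autoantigens of type 1 diabetes, kept overlapping levels. Ptprn averaged 1025 ± 131 CPM without prolactin and 995.4 ± 58.9 CPM with it. Ptprn2 was at 636.8 ± 72.5 and 625.8 ± 47.7 CPM. Their edgeR adjusted p were 0.883 and 0.930.

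Of the 7 SNARE genes, 0 passed edgeR's test, 0 passed with DESeq2 or limma-voom, and 1 was lower without adjustment. Stx1a and Snap25, the plasma membrane SNAREs of regulated exocytosis, had log2 changes of 0.00 and -0.07, with 95% intervals from -0.13 to 0.12 and from -0.21 to 0.07. Stx1a was at 21.3, 20.9 and 22.0 CPM in control replicates and 20.7, 22.0 and 21.5 CPM in prolactin replicates, so the libraries were interleaved. The vesicle SNAREs Vamp2 and Vamp3 had log2 changes of 0.04 and 0.00, and Vamp8, which is also found on zymogen granules, -0.08, none past the threshold (edgeR adjusted p from 0.716 to 0.994). Stx4a, which encodes syntaxin 4, had a log2 change of -0.05 (adjusted p = 0.72). Syntaxin 3 (Stx3), a SNARE found on granules and at the apical membrane of epithelia, was the exception in its ordering: 66.3, 66.0 and 64.9 CPM in control against 60.2, 62.3 and 59.9 CPM in prolactin. The groups did not overlap and each was tight, but the difference was small (log2 change -0.11, SE 0.047, adjusted p = 0.32).

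**Figure D3:**
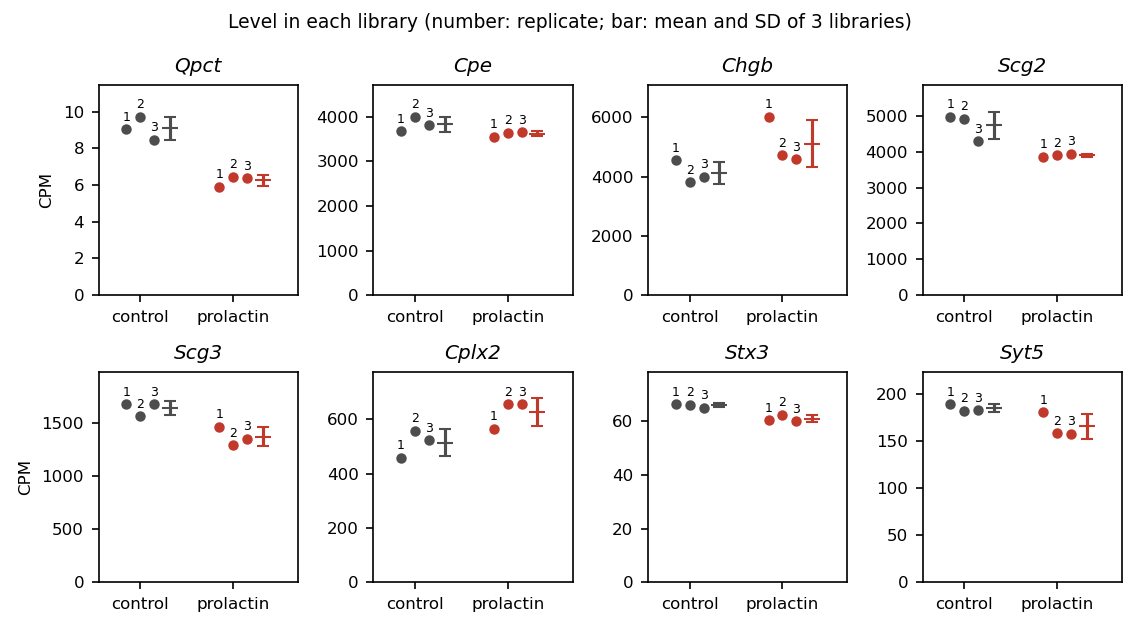
CPM on the vertical axis in each of the 6 libraries (points, numbered by replicate) for the 8 genes whose prolactin and control libraries did not overlap, with bars for mean and SD of 3 libraries. Qpct, Cpe, Scg2, Scg3, Stx3 and Syt5 are lower in all prolactin libraries, and Chgb and Cplx2 higher, with Qpct the 1 gene that passed the test.

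All 5 synaptotagmins had negative changes, from -0.18 to -0.04 on the log2 scale, and 0 of 5 passed edgeR's test (1 was lower without adjustment, and 0 passed with DESeq2 or limma-voom). Syt5 stood at 189.9, 182.8 and 183.3 CPM in control and at 181.3, 158.9 and 158.2 CPM in prolactin. Prolactin replicate 1 was close under the controls, and the other prolactin libraries were lower (log2 change -0.16, SE 0.066, adjusted p = 0.319). Syt13, an atypical family member without calcium binding and the most abundant of the 5, was at 1178, 1375 and 1396 CPM in control and at 1127, 1182 and 1177 CPM in prolactin. Control replicate 1 lay among the prolactin libraries (log2 change -0.18, adjusted p = 0.353). Syt7, a calcium sensor of insulin and glucagon granules, was at 366.4 ± 44.2 and 354.6 ± 15 CPM (adjusted p = 0.854). Syt4 and Syt11, close relatives of each other, had log2 changes of -0.10 and -0.04 (adjusted p = 0.502 and 0.782).

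The complexins, small proteins that clamp and activate assembled SNAREs, differed from each other in precision. Cplx2 stood at 458.8, 558.0 and 523.4 CPM in control and at 565.6, 656.3 and 655.7 CPM in prolactin. All prolactin libraries were higher, although prolactin replicate 1 exceeded control replicate 2 by little (log2 change 0.29, SE 0.091, 95% interval 0.08 to 0.49, edgeR adjusted p = 0.202). In the authors' deposited table its adjusted p was 0.0365, and in edgeR with prolactin replicates 2 and 3 summed it was 0.556. Cplx1 was much lower, at 5.46, 7.13 and 1.90 CPM in control and 3.57, 7.02 and 7.27 CPM in prolactin, and varied more than any other of the 39, with the highest of the 6 libraries 3.82 times the lowest. Its lowest libraries, control replicate 3 and prolactin replicate 1, were those with the highest summed acinar markers (20 genes), 3432 and 2236 CPM, and control replicate 2, with the lowest sum of 625.4 CPM, had a high Cplx1 level. The part of exocrine tissue in this was not tested. The interval of the Cplx1 change ran from -0.65 to 1.26 on the log2 scale, so neither a fall nor a rise of that size could be told from no change.

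For the priming and active-zone genes 0 of 4 passed edgeR's test, and 0 passed without adjustment, with DESeq2 or with limma-voom. Unc13a, which encodes Munc13-1 and opens syntaxin for SNARE assembly, was at 110.9, 102.7 and 144.9 CPM in control and at 112.3, 104.6 and 105.7 CPM in prolactin. Control replicate 3 stood above the rest, and the log2 change was -0.15 with it and 0.01 without it. Rims2, a Rab3-binding scaffold, had a log2 change of -0.02. Cadps and Cadps2, which prime dense-core granules, had log2 changes of -0.08 and -0.06 (adjusted p = 0.70 and 0.676).

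Rab GTPases and their effectors split evenly, 3 changes above 0 and 3 below, and 0 of 6 passed edgeR's test, either adjusted or not, or those of DESeq2 and limma-voom. Rab27a, the GTPase on insulin granules, averaged 290.5 ± 18.9 CPM without prolactin and 281.2 ± 15.1 CPM with it, and Rab3a 66.7 ± 5.0 and 66.4 ± 2.4 CPM. Sytl4 encodes granuphilin, which tethers granules through Rab27a. It averaged 208.6 ± 15.1 CPM without prolactin and 192.5 ± 18.4 CPM with it (log2 change -0.12, adjusted p = 0.578). Rph3al encodes Noc2, an effector of Rab3 and Rab27. Its log2 change of 0.13 (adjusted p = 0.399) and that of Rab3b, 0.10 (adjusted p = 0.510), were the largest above 0 in the group. Rab3d, which is also abundant on zymogen granules of acinar cells, was at 144.4, 154.8 and 159.7 CPM in control and at 154.9, 156.5 and 160.1 CPM in prolactin, with overlapping groups (adjusted p = 0.802). The exocyst subunit Exoc6 averaged 49.0 ± 4.5 CPM without prolactin and 44.3 ± 1.2 CPM with it (log2 change -0.15, adjusted p = 0.387). Leaving out control replicate 3 brought its adjusted p to 0.0498.

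Levels per length of the gene model spanned a wide range. Chga led with 3857 ± 468 RPKM in control and 3557 ± 206 RPKM in prolactin. Scg2 followed at 1883 ± 149 RPKM in control and 1553 ± 16 RPKM in prolactin. Chgb came below Scg2 in control, at 1505 ± 138 RPKM, and above it in prolactin, at 1867 ± 289 RPKM. Cpe had 1468 ± 63 and 1387 ± 22 RPKM, and Scg3 729.7 ± 28.8 and 609.9 ± 38.8 RPKM. The inhibitor Pcsk1n (568.6 ± 39.1 RPKM in control) and Scg5 (467.5 ± 39.6) stood above the convertases they bind, Pcsk1 (213.3 ± 15.8) and Pcsk2 (406.7 ± 14.4). Among vesicle SNAREs, Vamp2 (53.0 ± 5.0 RPKM in control) lay above Vamp8 (36.4 ± 3.6) and Vamp3 (25.6 ± 1.1), and Snap25 (28.4 ± 1.2) above Stx4a (21.4 ± 0.7), Stx3 (11.5 ± 0.1) and Stx1a (8.03 ± 0.22). Qpct, Cadps2 and Cplx1 were the lowest, with Cadps2 at 2.54 ± 0.12 RPKM in control. Of the 38 pairs of neighbours in the order of mean levels, 22 had overlapping ranges over the 6 libraries, among them Scg2 with Chgb, Chgb with Cpe, and Syt5 with Rab27a, so their order is not beyond their spread. The length counts all annotated exonic bases, so a gene with long exons that islets do not use is understated.

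**Figure D4:**
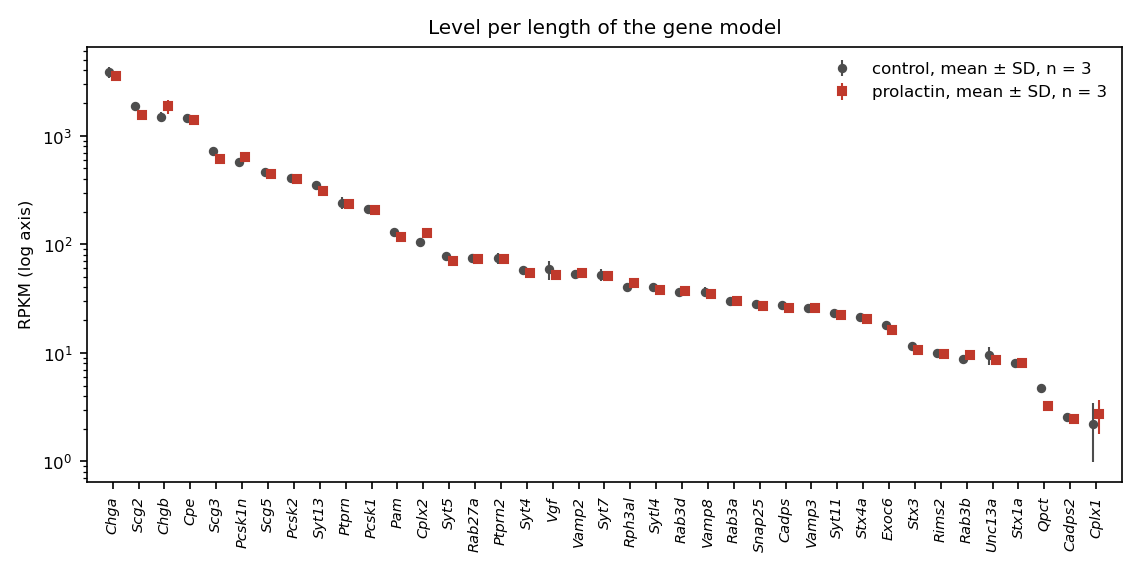
Mean RPKM with SD over 3 libraries (vertical log axis) of each gene in control (grey circles) and prolactin (red squares), ordered from the highest to the lowest mean. Chga is highest, and Qpct, Cadps2 and Cplx1 are lowest.

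Within a condition the 39 genes differed between libraries about as much as between conditions. The median absolute log2 difference over the 39 was 0.12 between control replicates 1 and 2, 0.18 between 1 and 3, and 0.10 between 2 and 3. In prolactin it was 0.11 for replicate 1 against either of the others and 0.02 between replicates 2 and 3. Between control and prolactin libraries it ranged from 0.08 to 0.15. Replicate 1 was the lowest library of both conditions for 17 of the 39, among them Chga, Cpe, Snap25, Vamp2 and Rab3a. It was the highest of both for 6, which were Pcsk1, Pam, Chgb, Syt4, Syt5 and Exoc6. No share over all genes is given here, so these counts are not shown to be particular to the 39. Summed beta-cell markers were also lowest in replicate 1 of each condition, with 117066 CPM for control and 119093 for prolactin, and summed alpha-cell markers highest, at 37916 and 36825 CPM. The part of the makeup of the islets in this was not tested.

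Related genes of the same steps, 118 tested in 3 lists, gave no call in edgeR's test: 0 rose and 0 fell. Unadjusted, 8 were higher and 13 lower at p under 0.05, where 7.78% of all genes tested were higher and 6.68% lower. DESeq2 called 3 higher and 2 lower, where 4.10% and 1.60% of all its genes were called, and limma-voom called 0. Their median log2 change was -0.03. Prolactin libraries were wholly above controls for 9 and wholly below for 20, beside 11.3% and 10.4% of all genes tested.

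Among other convertases, trimming enzymes and granule proteins (34 tested, 0 passing edgeR's test, 2 higher and 4 lower without adjustment, 0 called with DESeq2 or limma-voom), the smallest p-values were those of Furin, Ctsb and Atp6ap2. Furin, the convertase of the constitutive pathway, was at 102.9, 113.0 and 119.4 CPM in control and at 131.5, 125.4 and 124.6 CPM in prolactin (log2 change 0.19, adjusted p = 0.237). The lysosomal protease cathepsin B (Ctsb) averaged 829.4 ± 65.1 CPM without prolactin and 715.5 ± 32.3 CPM with it (log2 change -0.21, adjusted p = 0.25). Atp6ap2, an accessory subunit of the proton pump that acidifies granules, averaged 356.5 ± 17.2 CPM without prolactin and 318.5 ± 3.3 CPM with it (log2 change -0.16, adjusted p = 0.258). For all 3, named for their small p-values, the conditions did not overlap. That held for 9 of the 34 in the list (26.5%), beside 21.6% of all genes tested.

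Of the other SNAREs and SNARE regulators (41 tested), 0 passed edgeR's test, 2 were higher and 7 lower without adjustment, DESeq2 called 2 higher and 2 lower, and limma-voom 0. Prolactin libraries were wholly below controls for 11 of them (26.8%, beside 10.4% of all genes tested) and wholly above for 2 (4.88%, beside 11.3%). Snapin, which binds SNAP-25, was at 42.8, 44.2 and 41.5 CPM in control and at 34.0, 36.6 and 35.7 CPM in prolactin. The gap between conditions exceeded the range within either, and the test came just short (log2 change -0.28, SE 0.053, edgeR adjusted p = 0.0568). It passed in 6 of 18 alternative fits, DESeq2 among them (adjusted p = 0.00414), and its adjusted p was 0.253 with prolactin replicates 2 and 3 summed. Exons of Ilf2 on the opposite strand cover 15.5% of the Snapin model. Other synaptotagmins lay in both directions. Syt12 averaged 2.87 ± 0.10 CPM without prolactin and 3.97 ± 0.31 CPM with it (log2 change 0.47, adjusted p = 0.0765), and Syt3 averaged 11.2 ± 1.4 CPM without it and 8.05 ± 0.91 CPM with it (log2 change -0.48, adjusted p = 0.110). DESeq2 called both, and also Syt16, higher in prolactin (log2 change 0.36, DESeq2 adjusted p = 0.0319, edgeR adjusted p = 0.20). Exons of A930001C03Rik on the opposite strand cover 17.2% of the Syt12 model.

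Of the other priming, active-zone, Rab and exocyst genes (43 tested), 0 passed edgeR's test, with 4 higher and 2 lower before adjustment, 1 higher in DESeq2 and 0 in limma-voom. Rph3a encodes rabphilin, a Rab3 effector of synaptic vesicles. It was low in islets, with a mean of 0.757 ± 0.136 CPM without prolactin and 1.26 ± 0.10 CPM with it (log2 change 0.73, SE 0.166, adjusted p = 0.0952). The exocyst subunit Exoc3 was at 70.7, 69.3 and 58.9 CPM in control and at 56.8, 57.3 and 56.6 CPM in prolactin. Control replicate 3 lay near the prolactin libraries, and without it Exoc3 passed (log2 change -0.30, adjusted p = 0.0224), while with all libraries it did not (-0.22, adjusted p = 0.207). Pclo, the giant active-zone scaffold piccolo, which also senses calcium in beta cells, averaged 244.1 ± 43.2 CPM without prolactin and 309.4 ± 30.9 CPM with it with overlapping libraries (log2 change 0.34, adjusted p = 0.271).

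**Figure D5:**
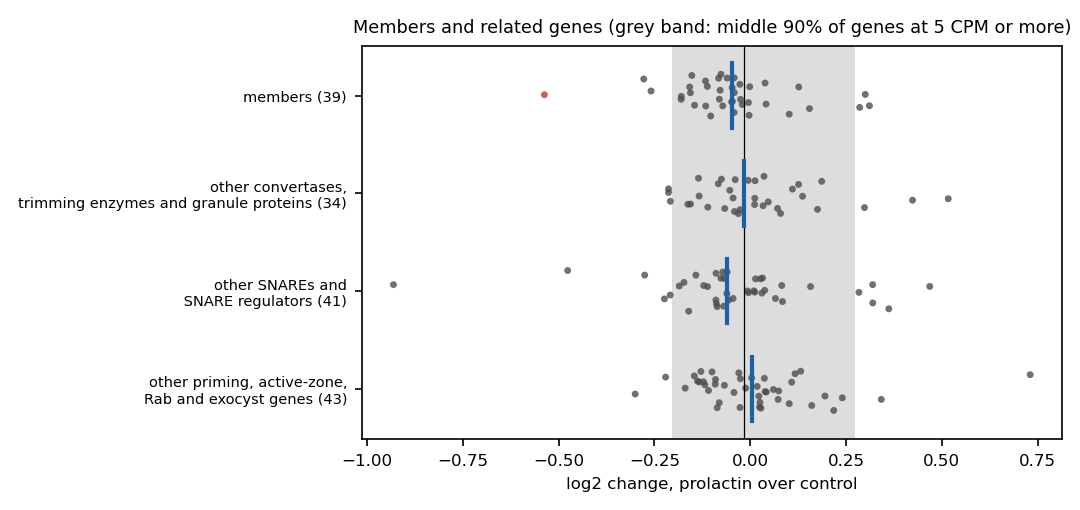
Log2 change, prolactin over control (horizontal axis), of each tested gene (points) in the 39 genes and in the 3 lists of related genes, with list medians as blue bars. The grey band holds the middle 90% of genes with at least 5 CPM, the thin line is their median, and red marks Qpct, the 1 gene past the threshold.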

How the data were processed

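The members and lists were chosen with earlier results of these data known. The deposited counts are whole reads per gene name, which, per the file headers, featureCounts 2.0.3 made from GENCODE vM10 models. Further tools in the submitters' processing notes are SAMtools 1.21, Subread 2.1.0 and DESeq2, with build mm10. For the aligner, no name is given in the sources used here. The featureCounts command sets no strand option and does not count pairs as one fragment, so both mates may be counted and no interval from counts alone is given. Exons of other genes overlap 11 of the 39 models, covering at most 14.7% (Syt4), and reads there cannot be assigned with certainty. The authors' deposited comparison holds log2 fold changes, their standard errors, p-values, a test score and a mean signal per gene.

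From the counts, edgeR 4.0.16 (R 4.3.3) fitted all genes left by its expression filter (count of at least 10, total of at least 15), with TMM scaling, with condition as the only term, two-sided, Benjamini-Hochberg adjusted. SE came from the test statistic (median 0.074 over the 39 genes). CPM use TMM-scaled totals, and RPKM divide them by model length. Alternatives were DESeq2 1.42.0, limma-voom (limma 3.58.1), other scalings and filters, halved counts, dropped hormone, mitochondrial or acinar genes, a replicate block, each library left out, and prolactin replicates 2 and 3 summed. The procedure was also run on simulated counts with 2-fold changes and no structure among replicates. Those changes are larger than any of the 39 genes, so the run does not show how well smaller ones are found. Described in full were members past the threshold, past an unadjusted p of 0.05 or with separate conditions, the 5 highest per length, and the 3 smallest p-values of each related list; some others were chosen after their values were seen. Of 242 list entries, 241 matched by name and 1 by a synonym.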

Additional observations from a re-analysis of the deposited data

How the results depend on the processing

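DESeq2 called 2 of the 39 genes higher and 3 lower, 3 related genes higher and 2 lower, and 776 of all genes higher and 303 lower. With no filter, 2 related genes were higher and 2 lower, and 470 of all genes higher and 127 lower. Upper-quartile scaling gave 1 related gene lower, and so did the filter of 1 CPM in 3 libraries, which called 46 of all genes lower. With prolactin replicates 2 and 3 summed, 0 of the 39 were lower (Qpct log2 change -0.56) and 42 of all genes were higher and 2 lower. The replicate block gave 1 of the 39 higher (Cplx2, adjusted p = 0.0438), 2 related genes higher (Pclo, adjusted p = 0.0277, and Rph3a) and 2 lower (Snapin and Syt3), and 464 of all genes higher and 134 lower. Deviations from the condition means correlated at 0.54, 0.33 and 0.09 for replicates 1, 2 and 3. Control replicates 2 and 3 each correlated slightly better with another number, so the numbers were not taken as pairs. Since prolactin replicates 2 and 3 were close to each other, these correlations cannot exclude pairing. Leaving out single libraries gave 0 to 3 of the 39 lower, 0 to 1 related genes higher and 0 to 3 lower, 39 to 342 of all genes higher and 1 to 234 lower, a median change of the 39 from -0.074 to -0.037, and a Qpct change from -0.58 to -0.49. The cause of these differences was not tested. Over 702 alternative values for the 39 genes, 0 called changes reversed, and 30 changes that were not called, in 13 genes, changed sign. The edgeR fit used the legacy setting that is the default of this version, and the other setting gave the same calls for the 39. The number of libraries limits every test here, and Qpct, Cplx1 and Cadps2 had the lowest levels per length.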
